A study of Mus musculus with 8 samples.

Results

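The retinoblastoma pocket proteins and their E2F partners were followed in peritoneal mast cells (PMCs). The 10 genes were taken by symbol from the gene count table, in which they are 10 of 55359 genes. They are the pocket protein genes Rb1, Rbl1 and Rbl2, the activator genes E2f1, E2f2 and E2f3, the repressor genes E2f4 and E2f5, and the atypical genes E2f7 and E2f8. E2f6, a repressor that binds no pocket protein, was read beside them but is not a member. The study sequenced 8 cultures of untreated wild-type PMCs of a C57BL/6x129/Sv background. Of these, 3 were primary cultures from female mice, 3 were primary cultures from male mice, and the remaining 2 were the lines PMC-303 and PMC-306, with 1 library each. Both lines arose spontaneously in ageing cultures, so each line stands for a single event of outgrowth and neither carries an engineered deletion. The lines were grown with less serum and less stem cell factor than the primary cultures, so that effects of the medium and of transformation cannot be told apart.

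Pocket proteins bind E2F transcription factors and silence the genes that drive entry into S phase. Cyclin D and cyclin E kinases phosphorylate the pocket proteins in G1, the E2Fs are released, and activator E2Fs switch on genes for DNA replication. RB binds mainly the activators, whereas the p107 and p130 proteins, encoded by Rbl1 and Rbl2, bind mainly E2F4 and E2F5 and, in resting cells, form the DREAM repressor with the MuvB core. E2F7 and E2F8 need neither a DP partner nor a pocket protein and repress E2F target genes later in the cycle. Rbl1, E2f1, E2f2, E2f7, E2f8 and a long form of E2f3 are themselves known as genes that E2F proteins control.

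Library totals were 15918757 to 24180226 estimated counts. Of 9 mast cell markers, none was higher and 3 were lower in the lines, namely Kit, Fcer1a and Il1rl1. Over all genes tested, 18.3% were higher and 15.5% lower by the same test, which is given below. The summed level of the list was 43519 CPM (counts scaled to a common library size) in PMC-303, 40299 CPM in PMC-306 and 46810 to 73402 CPM in the primary cultures. Of 7 macrophage markers, Adgre1 stood at 426 CPM in PMC-306, at 2.10 CPM in PMC-303 and at 3.37 to 46.4 CPM in primary cultures, while Csf1r, Cd14, C1qa and C1qb were at 0.0982 CPM or less in both lines. The summed macrophage list was 7.16 CPM in PMC-303, 441 CPM in PMC-306 and 7.22 to 68.7 CPM in the primary cultures. The part of Adgre1-positive cells or of a change of Adgre1 in the mast cells themselves in the PMC-306 values was not tested. Summed markers of B cells, T cells, eosinophils and fibroblasts reached at most 0.344 CPM in any library. In these bulk libraries a smaller share of expressing cells and less RNA per cell cannot be told apart.

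Both lines together were compared with the 6 primary cultures to ask which pocket protein and E2F genes changed with the outgrowth of the lines. A gene is called here where the adjusted p of limma is under 0.05. All 10 genes passed the filter on low counts. Of them, 6 were called higher in the lines, namely Rbl1, E2f2, E2f4, E2f5, E2f7 and E2f8, where 18.3% of all 14529 genes tested were called higher. None of the 10 was called lower, where 15.5% of all genes were called lower. Rb1, Rbl2, E2f1 and E2f3 were not called. The same 6 genes lay above every primary culture in both lines, a position held by 23% of all genes tested, and Rbl2 lay below every primary culture in both lines, a position held by 20.1% of all genes. The median log2 fold change was 0.94 over the 10 genes and -0.01 over all genes tested. These counts describe the 10 genes and are no test of them as a group.

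**Figure D1:**
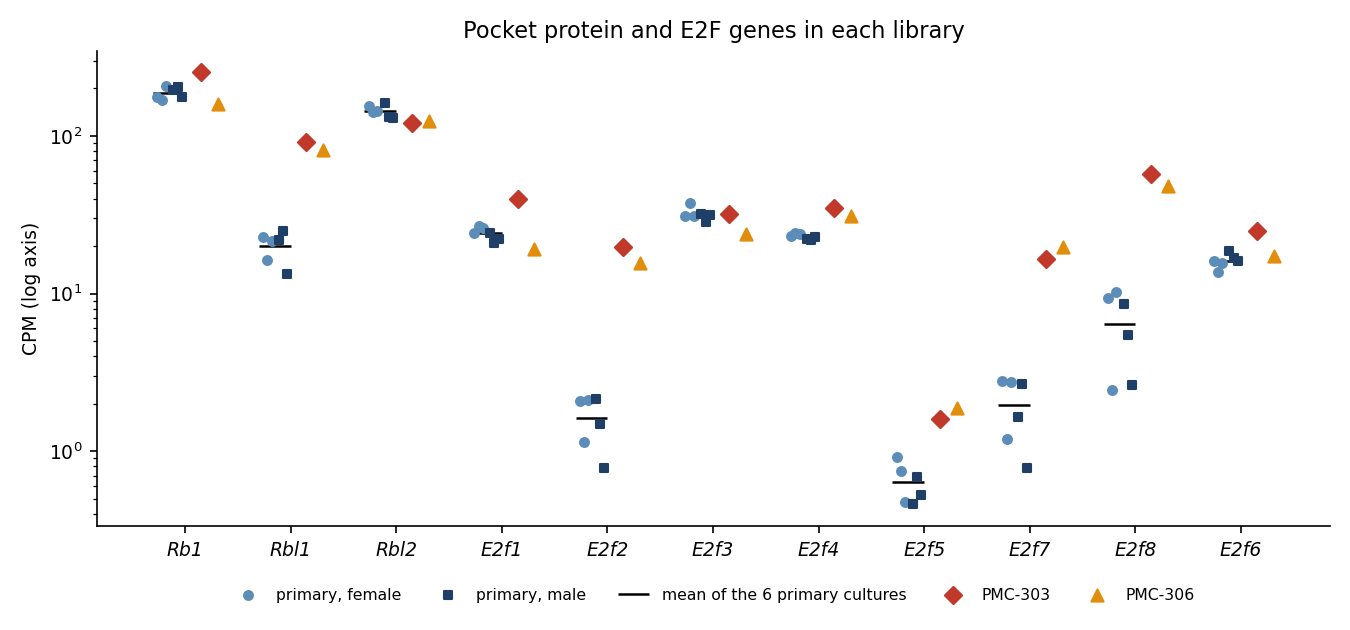
Level of each gene in CPM on a log axis, with circles and squares for the 3 female and 3 male primary cultures, a line at the mean of the 6, a diamond for PMC-303 and a triangle for PMC-306; E2f6 is shown at the right for comparison. Rbl1, E2f2, E2f4, E2f5, E2f7 and E2f8 sit above all primary cultures in both lines, and E2f1 and Rb1 sit above them in PMC-303 and, on this CPM scale, below them in PMC-306.

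The pocket protein genes differed among themselves. Rbl1, encoding p107 (ENSMUSG00000027641, chr2:156987813-157046475, minus strand, GRCm39), was at 91.1 CPM (PMC-303) and 81.6 CPM (PMC-306), against 22.8, 16.2 and 21.5 CPM in female and 21.8, 24.8 and 13.4 CPM in male primary cultures. Both lines stood far above the highest primary culture, and the lower line reached 329% of it. On the scale of log2(CPM + 0.1), Rbl1 rose by 2.13 ± 0.22 (SE), a fold of 4.37 with a 95% interval of 3.07 to 6.23, with an adjusted p of 0.000267 by limma. Of the 3 pocket protein genes only Rbl1 was called with both lines in the fit.

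Rb1, encoding RB itself (ENSMUSG00000022105, chr14:73421113-73563507, minus strand, GRCm39), was at 252.9 CPM (PMC-303) and 158.9 CPM (PMC-306). The primary cultures held 176.7, 168.5 and 206.7 CPM in females and 195.9, 202.9 and 177.7 CPM in males. PMC-303 lay above every primary culture and PMC-306 below every one, a pattern that Rb1 shares with E2f1 and that 4.38% of all genes tested showed. The position of PMC-306 depended on the scaling, since Rb1 there fell within the primary range with library totals (170 CPM against 159 to 211) and with TPM, which also scales for transcript length (50.3 TPM against 41.3 to 67.8), while PMC-303 stayed above it. The joint log2 fold change of 0.10 ± 0.16 (SE, adjusted p = 0.681 by limma) averages these opposite positions. With PMC-303 alone set against the primary cultures the log2 difference was 0.43 (adjusted p = 0.0396 by limma, the lone line assumed to vary like a primary culture), and with PMC-306 alone it was -0.23 (adjusted p = 0.20 by limma). Set against each other on the same assumption, the lines differed in Rb1 by 0.67 ± 0.16 on the log2 scale (SE, adjusted p = 0.0916 by limma), which did not pass the threshold.

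Rbl2, encoding p130, the pocket protein typical of resting cells (ENSMUSG00000031666, chr8:91796664-91850492, plus strand, GRCm39), was at 120.8 CPM (PMC-303) and 125.2 CPM (PMC-306). Primary cultures ranged from 129.6 to 161.2 CPM with a median of 142.9 CPM. Both lines were just below the lowest primary culture, and the log2 fold change of -0.22 ± 0.094 (SE) did not pass the threshold (adjusted p = 0.101 by limma). With library totals in place of the scaled library sizes, or with TPM, Rbl2 in the lines fell within the primary range.

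On the TPM scale, on which levels of different genes can be compared, Rb1 was the most abundant of the 10 genes in primary cultures at 56.7 ± 10.2 TPM (SD, n = 6). Rbl2 followed at 38.4 ± 6.19 TPM, with a range that overlapped that of Rb1, and Rbl1 was at 5.27 ± 1.29 TPM. In the lines Rbl1 reached 23.9 TPM in PMC-303 and 23.3 TPM in PMC-306. Its share of pocket protein TPM was 19% and 20.9% in the lines and 5.19 ± 0.65% in primary cultures, with a primary maximum of 6.01%. The share of Rbl2 was 26.0% in PMC-303 and 33.9% in PMC-306 against 32.1 to 41.9% in primary cultures, so that for Rbl2 PMC-303 alone fell below their range. For Rb1 PMC-306 alone did, at 45.2%, while PMC-303 was at 55.0%, against 52.3 to 61.9% in primary cultures.

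The activator genes did not move together. E2f2 (ENSMUSG00000018983, chr4:135899585-135923368, plus strand, GRCm39) was at 19.6 CPM (PMC-303) and 15.7 CPM (PMC-306), against 2.07, 1.14 and 2.11 CPM in female and 2.15, 1.49 and 0.787 CPM in male primary cultures. The lower line was at 730% of the highest primary culture. E2f2 rose by 3.43 ± 0.38 (SE) on the log2 scale, a fold of 10.8 with a 95% interval of 5.91 to 19.7 (adjusted p = 0.000341 by limma). The folds of E2f2, E2f7 and E2f8 were close, and their order changed with the offset and with the line left out.

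E2f1, the activator best known for both proliferation and apoptosis (ENSMUSG00000027490, chr2:154401326-154411812, minus strand, GRCm39), was at 39.6 CPM (PMC-303) and 19.2 CPM (PMC-306). The primary cultures lay close together, at 24.2, 26.9 and 26.0 CPM in females and 24.1, 20.8 and 22.2 CPM in males. The lines bracketed them in CPM, with PMC-303 at 2.06 times the level of PMC-306. In TPM PMC-303 stayed above the primary range, at 16.5 TPM, and PMC-306 fell within it, at 8.25 TPM against 6.91 to 10.7 TPM. The joint log2 fold change was 0.20 ± 0.23 (SE, adjusted p = 0.534 by limma). For PMC-303 alone the log2 difference from the primary cultures was 0.72 (adjusted p = 0.0106), and for PMC-306 alone it was -0.31 (adjusted p = 0.176), both by limma with the lone line assumed to vary like a primary culture. Set against each other on this assumption, PMC-303 exceeded PMC-306 in E2f1 by 1.04 ± 0.19 on the log2 scale (SE, adjusted p = 0.0388 by limma), where 2.5% of all genes were called between the lines, and E2f1 alone of the 10 genes was called. With TPM the difference was 0.99 and the call was lost (adjusted p = 0.348). E2f1 and Rbl1 lie 2576001 bases apart on chromosome 2, where the median log2 fold over 743 genes was 0.03 in PMC-303 and -0.01 in PMC-306.

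E2f3 (ENSMUSG00000016477, chr13:30090558-30170046, minus strand, GRCm39) was at 32.1 CPM in PMC-303, within the primary range of 28.3 to 37.3 CPM (median 31.2 CPM), and at 24.0 CPM in PMC-306, below it. With library totals PMC-306 stayed below the range, but in TPM it fell within it, at 5.75 TPM against 5.62 to 8.44 TPM. The log2 fold change was -0.19 ± 0.13 (SE, adjusted p = 0.297 by limma). The gene total hid a shift between its 2 start sites. The upstream start gives a long transcript with a coding length of 1371 bases, and the start 1672 bases downstream gives a pair of transcripts with coding lengths of 1020 and 1002 bases.

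The upstream start held 54.3% of E2f3 counts in PMC-303 and 45.2% in PMC-306. In primary cultures it held 36.7%, 19.2% and 14% in females and 28.1%, 16.9% and 14.2% in males. Both lines lay above every primary culture. Of 18470 transcripts with enough counts, 14.2% had a share beyond all primary cultures, in the same direction, in PMC-303 and PMC-306 alike. Counts from the downstream start were at 14.7 and 13.2 CPM in the lines and at 19.6 to 30.2 CPM in the primary cultures, with no overlap. Those from the upstream start were at 17.5 CPM in PMC-303, above the primary range of 4.35 to 11.4 CPM, and those of PMC-306 were within it at 10.9 CPM. These shares rest on the assignment of reads between transcripts that differ in their first exon, whose error was not analysed here, and no test was made of them.

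**Figure D2:**
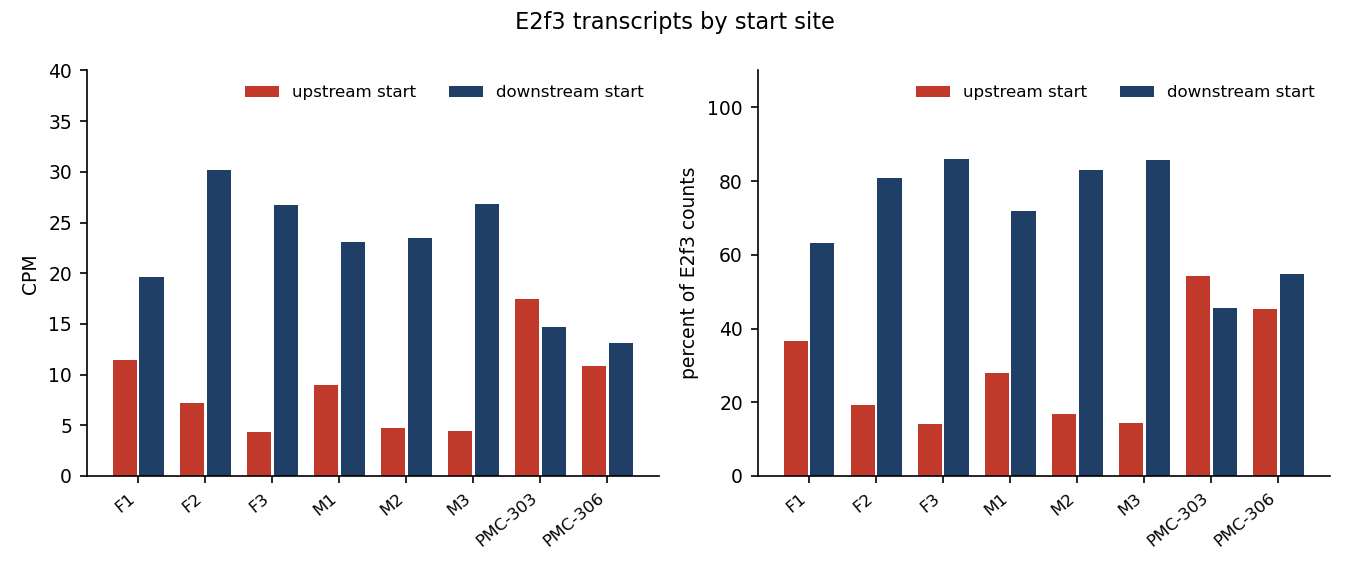
Counts of E2f3 from its upstream (red) and downstream (blue) start in each library, as CPM on the left and as percent of all E2f3 counts on the right, where F1 to F3 and M1 to M3 are female and male primary cultures. The downstream start exceeds the upstream start in all 6 primary cultures and in PMC-306, where the upstream start holds 45.2%, whereas in PMC-303 the upstream start holds 54.3%.

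Among the repressor genes, E2f4, the most abundant E2F in primary cultures (ENSMUSG00000014859, chr8:106024243-106032003, plus strand, GRCm39), was at 35.0 CPM (PMC-303) and 31.1 CPM (PMC-306). Primary cultures were at 23.2, 24.1 and 24.0 CPM in females and 22.1, 21.9 and 22.9 CPM in males, the tightest spread of the 10 genes with a coefficient of variation of 4.03%. E2f4 rose by 0.52 ± 0.083 (SE) on the log2 scale, a fold of 1.43 with a 95% interval of 1.26 to 1.63 (adjusted p = 0.00199 by limma). Chromosome 8, which carries E2f4 and Rbl2, had a median log2 fold of 0.25 over 503 genes in PMC-303 and 0.04 in PMC-306. The part of this chromosome-wide value in the E2f4 level of PMC-303 was not tested.

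E2f5 (ENSMUSG00000027552, chr3:14643676-14672404, plus strand, GRCm39) was scarce. It had 39 counts in PMC-303 (exact Poisson 95% interval 27.7 to 53.3) and 38 in PMC-306 (26.9 to 52.2), an interval that covers counting error only, against 20, 17 and 9 counts in female and 9, 11 and 10 counts in male primary cultures. In CPM these are 1.61 and 1.87 in the lines and 0.460 to 0.919 in primary cultures, with no overlap. E2f5 rose by 1.35 ± 0.32 (SE) on the log2 scale (adjusted p = 0.0118 by limma). With an offset of 1 in place of 0.1 CPM, which weighs on genes this low, the log2 rise was 0.75. The call was lost with female primary cultures alone (adjusted p = 0.0964) and without PMC-306 (adjusted p = 0.0817).

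The atypical repressors rose in both lines. E2f7 (ENSMUSG00000020185, chr10:110581300-110623245, plus strand, GRCm39) was at 16.5 CPM (PMC-303) and 19.7 CPM (PMC-306), against 2.80, 1.19 and 2.74 CPM in female and 1.63, 2.67 and 0.787 CPM in male primary cultures. E2f8 (ENSMUSG00000046179, chr7:48516176-48531452, minus strand, GRCm39) was at 57.1 CPM (PMC-303) and 48.1 CPM (PMC-306), against 9.32, 2.46 and 10.3 CPM in female and 8.53, 5.47 and 2.62 CPM in male primary cultures. For neither gene did the groups overlap, and the lower line was at several times the highest primary culture. E2f7 rose by 3.26 ± 0.47 (SE) on the log2 scale (adjusted p = 0.00125 by limma) and E2f8 by 3.21 ± 0.58 (adjusted p = 0.00354). The 95% intervals of their folds were 4.54 to 20.3 and 3.73 to 23.1 and overlapped that of E2f2.

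**Figure D3:**
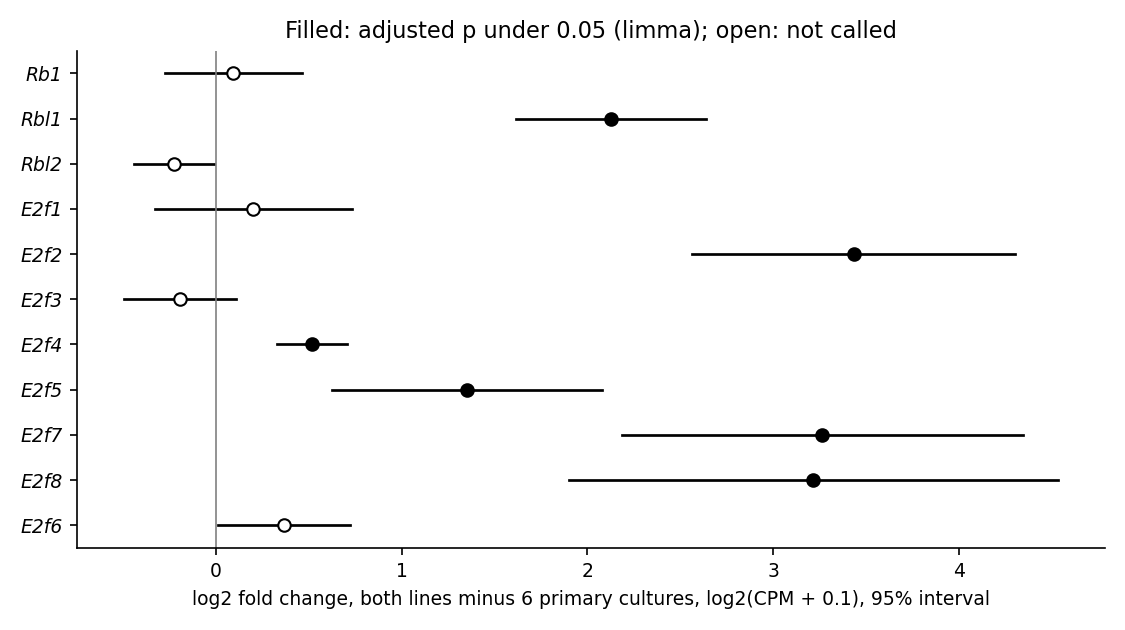
Log2 fold change of each gene between both lines and the 6 primary cultures on the log2(CPM + 0.1) scale, with 95% intervals from limma; filled points have an adjusted p under 0.05, open points do not, and E2f6 is added at the foot. The intervals of Rbl1, E2f2, E2f4, E2f5, E2f7 and E2f8 lie to the right of 0, and E2f2, E2f7 and E2f8 have the largest values at 3.43, 3.26 and 3.21.

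E2f6 was at 24.9 CPM in PMC-303, above the primary range of 13.7 to 18.5 CPM, and at 17.4 CPM in PMC-306, within it, and was not called (log2 fold change 0.37, adjusted p = 0.102 by limma).

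To contrast activators with repressors within each library, the mean log2(CPM + 0.1) of E2f4 and E2f5 was subtracted from that of E2f1, E2f2 and E2f3. The difference was 1.92 in PMC-303, 1.31 in PMC-306 and 1.40 ± 0.26 (SD, n = 6) in primary cultures, whose range was 1.17 to 1.77. PMC-303 lay above this range and PMC-306 within it, and the mean of the lines exceeded that of the primary cultures by 0.21, less than 1 SD of the primary cultures at this offset. The excess was 0.30 with an offset of 0.5 CPM and 0.33 with 1 CPM, both above the SD of 0.26 found with 0.1 CPM. Taken singly, the activators went different ways: relative to E2f4 and E2f5, E2f2 was 2.50 higher in the lines, E2f1 was 0.73 lower and E2f3 was 1.13 lower. For E2f1 the lines differed, with PMC-303 only 0.20 lower and within the primary range and PMC-306 1.26 lower and below it.

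Against the atypical E2Fs the picture differed. The mean of the activators minus that of E2f7 and E2f8 was -0.07 in PMC-303 and -0.67 in PMC-306, while the primary cultures held 1.16 to 2.57 with a mean of 1.72 ± 0.64 (SD, n = 6). Both lines lay below all 6 primary cultures. When E2f7 and E2f8 were counted as repressors together with E2f4 and E2f5, the activator minus repressor difference was 0.94 lower in the lines, at 0.93 in PMC-303 and 0.32 in PMC-306 against 1.56 ± 0.29 in primary cultures. The contrast thus changed direction with the place given to the atypical E2Fs, whose rise was measured in the same libraries, and it carries no test of its own.

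Composition in TPM showed the same shift. Summed over the 7 E2F genes, TPM was 75.6 in PMC-303 and 64.2 in PMC-306 against 33.5 ± 4.54 (SD, n = 6) in primary cultures. E2f7 and E2f8 held 33.0% and 39.2% of this sum in the lines and 8.46 ± 3.39% in primary cultures. The activators held 37.7% and 27.7% against 49.8 ± 2.61%, and E2f4 with E2f5 held 29.3% and 33.0% against 41.7 ± 2.57%. For each of these 3 shares both lines lay outside the primary range. The shares divide the same sum, so that a larger share of E2f7 and E2f8 lowers the others. A lower share is thus not a lower level: E2f4 was at 21.1 and 19.9 TPM in the lines against 11.1 to 14.8 TPM in primary cultures. The ratio of pocket protein TPM to E2F TPM was 1.66 in PMC-303 and 1.73 in PMC-306, below the primary range of 2.61 to 3.35.

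**Figure D4:**
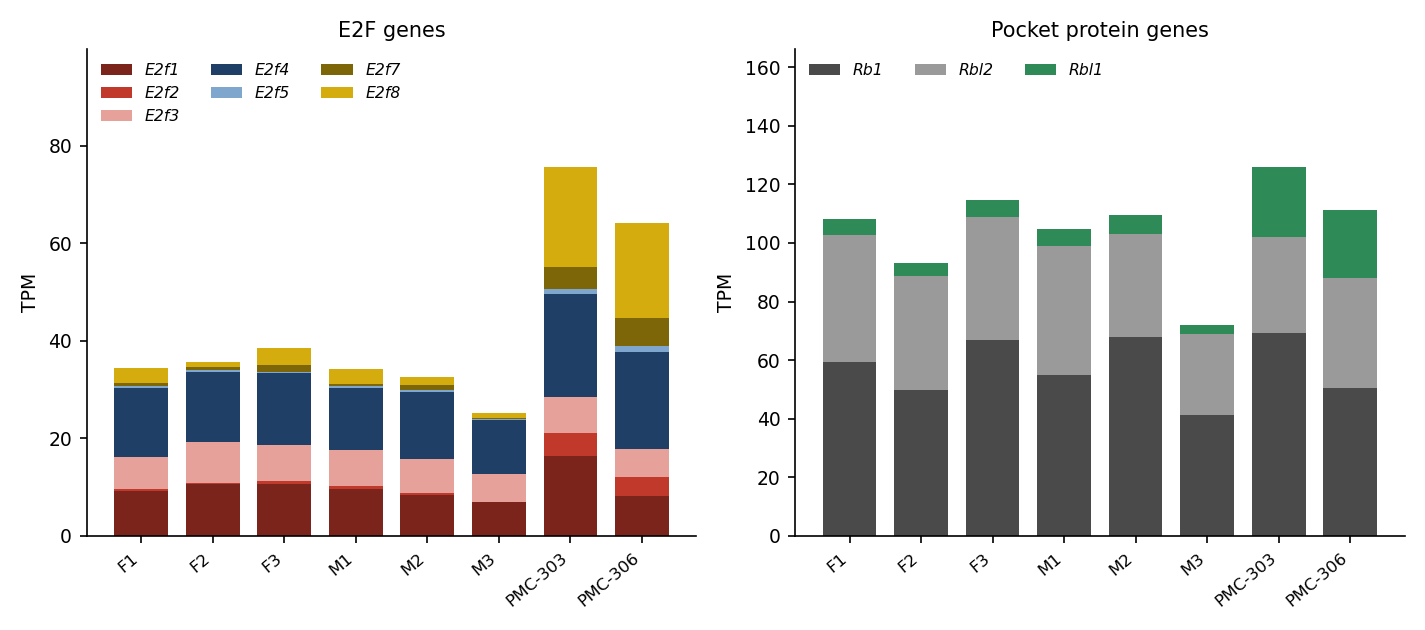
Stacked TPM of the 7 E2F genes (left) and the 3 pocket protein genes (right) in each library, where F1 to F3 and M1 to M3 are female and male primary cultures. The E2F stack is higher in both lines (75.6 and 64.2 TPM) than in any primary culture, with E2f8 as the largest added block, and Rbl1 widens in the pocket protein stack to 19% and 20.9%.

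Ranked by TPM in primary cultures, the E2F genes ran from E2f4 (13.5 TPM) through E2f1 (9.26 TPM), E2f3 (7.05 TPM), E2f8 (2.23 TPM), E2f7 (0.690 TPM) and E2f5 (0.397 TPM) to E2f2 (0.360 TPM). The ranges of E2f1 and E2f3 overlapped, and so did those of E2f8 and E2f7 and those of E2f7, E2f5 and E2f2, whereas E2f4 lay above all others. In the lines E2f8 stood at 20.4 TPM in PMC-303 and 19.4 TPM in PMC-306, next to E2f4 at 21.1 and 19.9 TPM.

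The primary cultures themselves varied in the same genes. Among them the coefficient of variation was 53.2% for E2f8, 44.9% for E2f7, 35.4% for E2f2, 28.5% for E2f5 and 21.7% for Rbl1, and 4.03 to 9.47% for the others. Female culture 2 and male culture 3 had the lowest values of E2f2, E2f7, E2f8 and Rbl1. These cultures also had the lowest values of Mki67, a marker of cycling cells, at 42.7 and 28.6 CPM, while the other 4 primary cultures were at 86.6 to 105.7 CPM. They also had the highest levels of the macrophage markers Adgre1 (46.4 and 25.3 CPM against 3.37 to 4.35 CPM in the other 4) and Lyz2 (18 and 5.72 CPM against 1.18 to 2.35 CPM). Of the other listed macrophage markers, Cd68 was highest in male culture 2, at 17.8 CPM. It was at 4.22 CPM in female culture 2 and 1.94 CPM in male culture 3. Csf1r, Cd14, C1qa and C1qb were at 0.230 CPM or less in every primary culture. The part of macrophages in the low values was not tested.

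Mki67 itself stood at 1015 CPM (PMC-303) and 835 CPM (PMC-306) and at 74.1 ± 30.9 CPM (SD, n = 6) in primary cultures, a log2 rise of 3.77 ± 0.48 (SE, adjusted p = 0.000666 by limma). Top2a rose by 3.43 ± 0.36 (adjusted p = 0.000262). Per 1000 CPM of Mki67, E2f2 was at 19.3 CPM (PMC-303) and 18.8 CPM (PMC-306), within the primary range of 17.1 to 27.5 CPM. E2f8 per 1000 CPM of Mki67 was at 56.3 and 57.6 CPM in the lines against 57.6 to 99.6 CPM in primary cultures, and E2f7 was at 16.3 and 23.6 against 18.9 to 30.6 CPM. PMC-303 lay just below the primary range for both atypical genes, and PMC-306 lay within it, for E2f8 at its lower edge.

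Rbl1 was lower on this scale, at 89.8 and 97.7 CPM in the lines against 203 to 468 CPM in primary cultures. E2f1 was at 39.1 and 23.0 CPM against 238 to 776 CPM. The levels of E2f2, E2f7 and E2f8 thus moved roughly in step with Mki67, those of Rbl1 less and those of E2f1 hardly at all, and the part of the share of cycling cells in these differences was not tested.

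**Figure D5:**
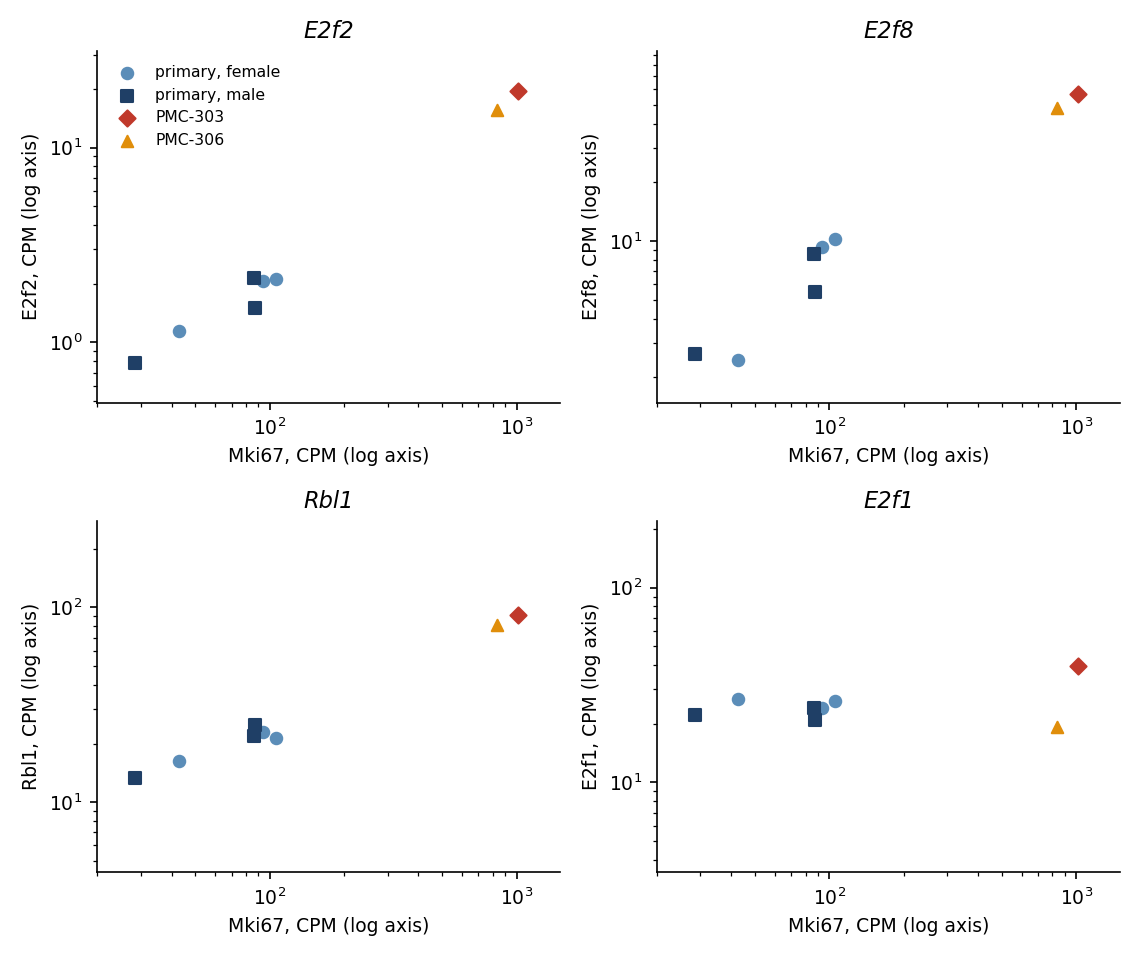
Level of E2f2, E2f8, Rbl1 and E2f1 against that of Mki67 in each of the 8 libraries, all in CPM on log axes, with circles and squares for female and male primary cultures and a diamond and a triangle for PMC-303 and PMC-306. Each vertical axis spans the same ratio. E2f2 and E2f8 are lowest in the 2 primary cultures with the lowest Mki67 and highest in the lines, but do not follow the order of Mki67 in every library. E2f1 stays between 19.2 and 39.6 CPM.

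Among 8750 tested genes at a mean level of 10 CPM or more, those whose log2 profile over the 8 libraries was most like that of E2f8 were Kif18b, Cenpe and Cdca3, with root mean square differences of 0.24, 0.25 and 0.26. Kif18b and Cenpe encode motor proteins of the mitotic spindle. The profiles most like Rbl1 were those of Cdc7, a kinase that fires replication origins (0.13), Kif20b (0.15) and Tyms, thymidylate synthase (0.16). For E2f1 they were Ppp1r16b (0.06), Slc25a10 (0.09) and Faf1 (0.10), and for Rb1 Ccdc88a (0.07), Plpp5 (0.08) and Dhx32 (0.08). Ppp1r16b, at 68.3 CPM in PMC-303, 31.7 CPM in PMC-306 and a primary mean of 40.7 CPM, repeated the opposite positions of E2f1.

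RefSeq start sites (build GRCm38.p6) were searched for letters typical of E2F binding because many of these genes are known E2F targets. The window ran from 250 bases before to 50 bases after each start, and 4 words were sought on both strands, namely TTTGGCGC, TTTCCCGC, TTTCGCGC and TTTGCCGC. Of the 10 genes, 7 had an entry. Rb1, E2f4 and E2f5 had none. A word was found in 4 of the 7, namely Rbl1, E2f2, E2f3 and E2f7, and not in E2f1, E2f8 and Rbl2. Carried over to GRCm39 by the distance between the builds at Rbl1, the E2f1 window lies downstream of both E2f1 starts counted here. The absence of a word in it therefore says nothing of the sequence before those starts. Over all 32851 windows 2.26% held a word. A match describes letters and shows no binding.

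The stretches with a match are shown 5′ to 3′ on the strand of the gene, with the word in capitals, for 3 genes that rose and for the upstream start of E2f3. They are Rbl1 at chr2:157204535-157204594, minus strand, with the word at position -18 from the start, E2f7 at chr10:110745215-110745274, plus strand, with the word on the opposite strand at position -198, E2f3 at chr13:29986064-29986123, minus strand, with the word on the opposite strand at position -11 from the upstream start, and E2f2 at chr4:136172294-136172323, plus strand, with the word at position 40 after the start.
Rbl1: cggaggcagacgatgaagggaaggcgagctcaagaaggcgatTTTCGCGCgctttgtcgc
E2f7: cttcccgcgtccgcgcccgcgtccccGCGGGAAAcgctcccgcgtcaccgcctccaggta
E2f3, upstream start: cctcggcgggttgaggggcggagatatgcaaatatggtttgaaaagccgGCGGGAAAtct
E2f2: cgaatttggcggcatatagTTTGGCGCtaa

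The downstream start of E2f3, whose counts were lower in the lines, has a RefSeq window of its own at chr13:29984342-29984641 that held none of the 4 words. The windows of E2f8, which rose by 3.21 on the log2 scale, and of Rbl2, which was not called, held none either and are not printed. Whether a word goes with a rise was not tested. The 60 bases before the downstream start of E2f3, at chr13:29984392-29984451 on the minus strand, are given for comparison. Those before the RefSeq start of E2f1, at chr2:154569427-154569486 on the minus strand, are also given, though they lie downstream of both E2f1 starts counted here.
E2f3, downstream start: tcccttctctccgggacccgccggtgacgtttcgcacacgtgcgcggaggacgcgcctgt
E2f1: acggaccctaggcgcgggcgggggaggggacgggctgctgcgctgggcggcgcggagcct

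Genes of the surrounding pathway were read from lists written down by name. Over all 14529 genes tested, 18.3% were called higher and 15.5% lower, and the median log2 fold change was -0.01. These are the shares to set beside the count of each list. Of 27 E2F target genes, all 27 were called higher, with a median log2 fold change of 2.53 and a lowest value of 0.90. Ccna2, cyclin A2, was at 286 CPM (PMC-303) and 216 CPM (PMC-306) against 17.1 ± 6.95 CPM in primary cultures (log2 3.98 ± 0.47, SE). Tk1, thymidine kinase, rose by 3.68 and Cdk1, the mitotic kinase, by 3.58 on the log2 scale. Of the 22 target genes with a RefSeq window, 12 (54.5%) held one of the 4 words, against 2.6% of all genes searched.

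Of the DP partners that classical E2Fs need to bind DNA, Tfdp1 was higher (107.6 and 107.2 CPM against 64.8 ± 5.63 CPM, adjusted p = 0.000636 by limma) and Tfdp2 was lower (20.6 and 29.0 CPM against 46.7 ± 4.01 CPM, adjusted p = 0.00141). Of 7 genes of the MuvB core and its partners, 5 were higher and none was lower. The largest rises were those of Mybl2 (log2 2.90), Foxm1 (2.88) and Lin9 (2.03), the first 2 being the factors that MuvB joins in cycling cells, and Lin37 and Lin52 were not called.

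Of 15 genes for kinases that act on pocket proteins and their inhibitors, 14 could be tested. Of these, 7 were higher and 6 were lower, where 18.3% and 15.5% of all genes were. The largest rises were those of the INK4 inhibitor Cdkn2c (log2 3.25 ± 0.59, SE) and of the cyclin E genes Ccne2 (2.62 ± 0.25) and Ccne1 (2.28 ± 0.30). Among the falls, Cdkn2a, among whose products p16 blocks CDK4 and CDK6, was at 82.2 ± 15.1 CPM in primary cultures, 1.40 CPM in PMC-303 and, at 3 counts, 0.147 CPM in PMC-306. Cdk6 fell by 1.95 and the cyclin D gene Ccnd2 by 1.91 on the log2 scale, and Cdk6 differed between the lines, at 257 CPM (PMC-303) and 49.0 CPM (PMC-306). All 3 cyclin D genes were lower and both cyclin E genes were higher in the lines.

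Of 11 genes for corepressors recruited by pocket proteins, 6 were higher and 1 was lower, where 18.3% and 15.5% of all genes were. Rbbp7 rose by 1.72, Dnmt1 by 1.58 and Suv39h1 by 1.25 on the log2 scale, and Kmt5b fell by 0.24 (adjusted p = 0.0485 by limma). All 4 genes of E2F turnover were higher, from Fzr1 at 0.81 through Skp2 at 1.55 and Cks1b at 2.59 to Ccnf, which encodes a cyclin that targets E2F proteins for degradation, at 3.03. Several lists share genes, Ccne1, Ccne2 and Mybl2 among them, so their counts are not independent.

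Female and male primary cultures were compared to ask whether sex moved these genes. None of the 10 was called by limma, where 0.0438% of 13710 genes, or 6 genes, were called, and none had an unadjusted p under 0.05, where 464 genes had. The lowest unadjusted p was 0.0589, for E2f1, at 25.7 ± 1.37 CPM in females and 22.4 ± 1.62 CPM in males (SD, n = 3 each, adjusted p = 1.00 by limma). Means were higher in females for 9 of the 10 genes, with log2 differences between -0.06 for Rb1 and 0.44 for E2f7. Female and male cultures did not overlap for 2 of the 10 genes, E2f1 and E2f4 (23.2 to 24.1 CPM in females and 21.9 to 22.9 CPM in males), nor for 7.97% of all genes tested, and they overlapped for the other 8.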

How the data were processed

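Total RNA of 8 cultures was sequenced from stranded libraries (TruSeq Stranded Total RNA). Per the labels and the methods of the study, reads were trimmed with Trim Galore 0.6.7, aligned to GRCm39 with STAR 2.7.9a and quantified with Salmon 1.5.2 in the nf-core/rnaseq workflow. Estimated counts of genes and transcripts, and TPM of genes, were deposited by the authors in tables that had passed through a spreadsheet program, which rewrote 3.37% of gene count cells and 6 of 80 cells of the 10 genes. Rewritten cells were restored. Gene count cells rewritten as day and month, 404 in all, can be read with or without a zero after the point. The reading nearer to the transcript sum was kept, which gave 6 cells a zero. After this, 99.7% of gene counts were within 0.2 counts of their transcript sum, which is no independent check of the day and month cells. In 9307 TPM cells the decimal point was placed to fit the counts. Because the deposited cells are partly text, count models were not used, and limma 3.58.1 in R 4.3.3 (trended variance prior, Benjamini-Hochberg adjusted p) took their place, on log2(CPM + 0.1) of restored counts. CPM used library sizes scaled by trimmed means (TMM), and 3 counts equal 0.123 to 0.187 CPM. Genes needed about 10 counts in 2 libraries (lines) or 3 (sexes) and 15 in total. On simulated data for the lines against primary cultures, 90% of 200 changed genes were recovered with 10 false calls among 14529. The changed genes all moved by the same fold, up or down, and scarce genes were not among them. The simulated lines were given a spread taken from the primary cultures. These rates therefore do not cover smaller changes, scarce genes or as many changes as were called here.

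Groups followed the labels. Nothing in the labels states which cultures share animals, so p-values measure the spread between these cultures. Coordinates are from GENCODE M39. Transcript shares were compared for genes with at least 100 counts in every library and transcripts with a mean primary share of 5 to 95%. The genes and lists were chosen with earlier results of these data known. From each list at most the 3 largest rises and falls are named, with Mki67, Top2a and Cdkn2a, and for E2f1, E2f8, Rb1 and Rbl1 the 3 genes most alike over the 8 libraries. The other genes named (E2f6, Lin37, Lin52, the cyclin D genes and cell type markers) were chosen after their values were seen. The alternatives were 2 other scalings, offsets of 0.5 and 1, no filter, no trend, TPM, single-sex primary cultures, a replicate block for the sexes and leaving out each library. A fit of PMC-303 against PMC-306, with the spread taken from the primary cultures, and the positions under other scalings were added after seeing the data.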

Additional observations from a re-analysis of the deposited data

Results flagged for a closer look

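Rb1 and E2f1 were singled out because PMC-303 and PMC-306 lay on opposite sides of the 6 primary cultures in CPM. Rb1 was at 252.9 CPM in the first and 158.9 CPM in the second, and E2f1 at 39.6 and 19.2 CPM. With TPM, PMC-306 fell within the primary range for both genes, and with library totals it did so for Rb1, whereas PMC-303 stayed above it. In a comparison of the lines with the spread of the primary cultures, chosen after seeing the data, E2f1 was called (adjusted p = 0.0388 by limma) and Rb1 was not (adjusted p = 0.0916). Among the 6 primary cultures, no value of the 10 genes stood apart by Dixon's test at the 95% level, in 10 tests of which chance would mark about 0.5.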

How the results depend on the processing

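None of the 10 genes was called lower under any alternative, and all 27 E2F targets stayed called higher. The number called higher was 6 in the alternatives that kept both lines, except for 5 with female primary cultures alone, where E2f5 was lost. Without PMC-306, where the lines rest on 1 library, the log2 fold was 0.43 for Rb1, 0.72 for E2f1 and 1.25 for E2f5. Without PMC-303 these folds were -0.23, -0.31 and 1.46. Over all genes 4920 were called, 2146 with female and 3032 with male primary cultures alone, with fewer samples in the fit. Leaving out 1 library moved the activator minus repressor difference between -0.094 (without PMC-303) and 0.52 (without PMC-306), and it was -0.94 with E2f7 and E2f8 among the repressors. Leave-one-out log2 folds of the lines ranged from -0.23 to 0.43 for Rb1, from -0.31 to 0.72 for E2f1 and from -0.39 to 0.018 for E2f3. Between the sexes they ranged from -0.22 to 0.23 for Rbl1, from -0.064 to 0.60 for E2f2, from -1.13e-05 to 0.83 for E2f7 and from -0.14 to 0.96 for E2f8, and Rb1 was at 0.12 with TPM. Of 280 alternative log2 folds of single genes between lines and primary cultures or between the sexes, 266 kept direction and side of the threshold, 10 changed sign, 2 gained a call and 2 lost it. The median log2 fold of all genes moved to 0.10 with library totals and to 0.13 with TPM. With the replicate number as a block, 0 of the 10 genes and 5 genes in all were called between the sexes, against 6 without it. Between same-numbered cultures, deviations from the mean of each sex correlated at 0.40, -0.22 and 0.28. With 3 cultures per sex, such values cannot decide whether the numbers pair the cultures. With 1 library per line, depth limits E2f5 most.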

Other observations

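The transcript assignments of E2f1 and E2f5 also differed between lines and primary cultures. The E2f1 transcript with a coding length of 1290 bases held 33.6% of E2f1 counts in PMC-303 and 28.0% in PMC-306, against 7.17 to 21.5% in primary cultures, and the other, with 1155 bases, held the rest. For E2f5, all 39 and 38 counts of the lines were assigned to the transcript with a coding length of 1005 bases, as were the 9 counts of female culture 3, whereas the counts of the other 5 primary cultures were all assigned to another transcript that the annotation used here does not list. Counts of E2f5 this low give no measure of the share itself. These values were noticed after the data were seen and were not tested.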
